A study of Mus musculus with 6 samples.

Results

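The smooth muscle contractile genes are those whose products build, hold or switch on the contractile apparatus of smooth muscle. The 10 genes described here, of 46983 in the deposited gene table, were taken by their symbols: Acta2, Actg2, Myh11, Cnn1, Tagln, Smtn, Lmod1, Des, Synpo2 and Myocd. RNA-seq was performed on aortic valves from wild type C57BL/6J mice of 2 ages, postnatal day 2 (PND2) and 4 months, with 3 biological replicate libraries per age, each made from valves pooled from 5 to 6 mice. No treatment or transgene was involved, so age was the compared variable. Values are RPKM, the reads on a gene scaled by the length of its exons and by the library total. A comparison between libraries also depends on how they are scaled, which was varied as given below. Library totals, recovered from the RPKM values, were 23810507 to 38994657. Each of the 10 genes had between 3312 and 1064760 reads in every library.

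Smooth muscle shortens when myosin filaments pull on thin filaments of actin. Calponin, transgelin, smoothelin and leiomodin bind or assemble those thin filaments, while desmin and synaptopodin 2 belong to the scaffold that ties them together. Most of these genes carry CArG boxes, the binding sites of serum response factor (SRF), and the SRF partner myocardin is known for switching them on together. In the aortic valve, such genes are known from activated interstitial cells and from the smooth muscle of the adjoining aortic wall. Des, Acta2, Tagln, Smtn, Synpo2 and Myocd are also known in developing or adult heart muscle. The libraries are bulk samples, so more cells of a type cannot be told apart from more RNA per cell in any result below.

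Age differences were tested with limma on log2(RPKM + 0.1) over 25903 genes, and a gene was called at a Benjamini-Hochberg adjusted p under 0.05. Of the 10 genes, 8 were higher at 4 months and none was lower. Of all genes tested, 14.7% were called higher and 21.1% lower, 35.8% in all. The median log2 fold change of the 10 genes was 1.42, against -0.14 over all genes. The largest difference among them was that of Myh11 and the smallest that of Myocd. The 3 libraries of an age lay wholly above those of the other age for 7 of the genes, all higher at 4 months, which was so for 20.0% of all genes, while 29.9% lay wholly lower. Scaling each library to its median moved the median of all genes by 0.12 and the share of calls that were higher from 41.1% to 52.7%, and the number of the 10 genes called higher was still 8, with 17.8% of all genes then called higher and 15.9% lower.

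**Figure D1:**
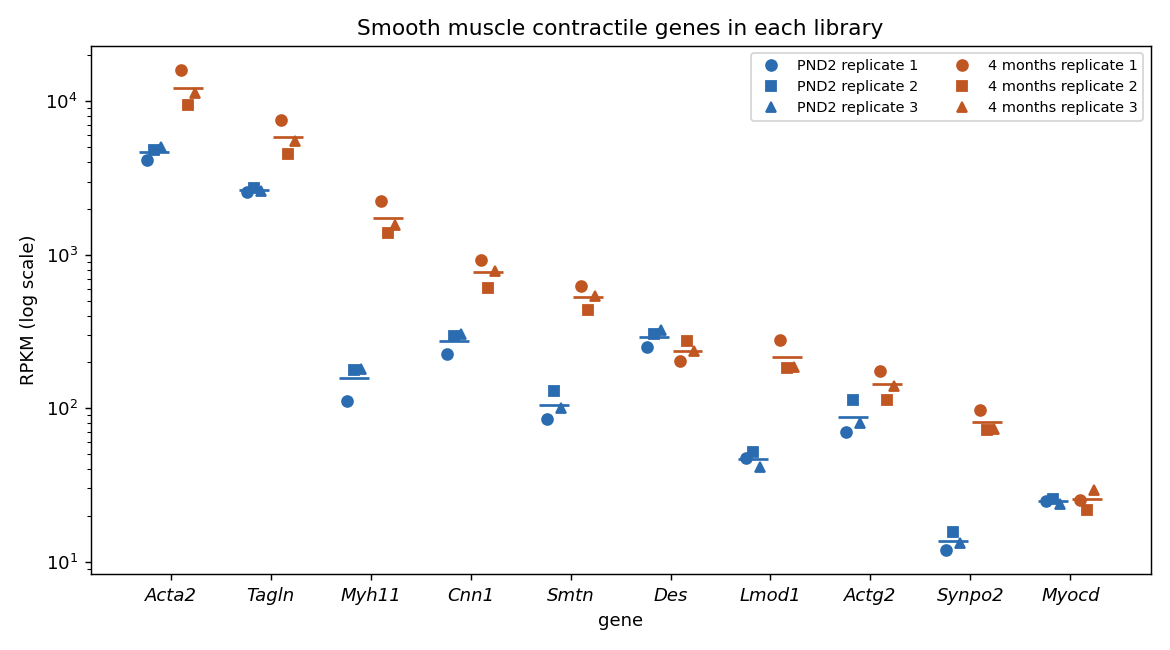
RPKM of the 10 smooth muscle contractile genes (log scale) in each of the 6 libraries, with a bar at the mean of each age, ordered by the mean at 4 months. Myh11 shows the widest gap between ages, and the points of Des, Actg2 and Myocd overlap.

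Myh11 encodes the smooth muscle myosin heavy chain, the motor protein that defines differentiated smooth muscle (chr16:14194527-14291408 in mm10, minus strand). It stood at 112, 179 and 179 RPKM in the PND2 libraries and at 2237, 1378 and 1571 RPKM at 4 months. Even the lowest adult library was far above the highest neonatal one. The means were 156 ± 38.6 and 1729 ± 451 RPKM (SD, n = 3), a ratio of 11.05. Its log2 fold change was 3.47 (SE 0.25, limma adjusted p 0.00013). Among 21917 nuclear protein-coding genes ordered by mean RPKM, Myh11 moved from rank 508 to rank 21.

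Myh11 transcripts are known in forms that end in different tails, SM1 and SM2, according to whether a short exon near the 3′ end is skipped or included. The deposited exon table lists this exon with 39 bases (chr16:14198050-14198088), which is exon 41 of 42 in the GENCODE transcript that includes it. Its 28 coding bases are followed by a TGA stop, so that the reading frame holds 1938 codons with the exon and 1972 without it. The sequences below show the last 30 bases before the junction in lower case and what follows in capitals, in the first line the whole 39-base exon and in the second the first 30 bases of the last exon, and they are given because the capitals are what differs between the tails.
Myh11 with the 39-base exon: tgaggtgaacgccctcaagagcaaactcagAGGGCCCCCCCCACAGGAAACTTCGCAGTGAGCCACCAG
Myh11 without it: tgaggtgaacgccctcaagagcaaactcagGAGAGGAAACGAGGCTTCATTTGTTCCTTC

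The 39-base exon was used far less at PND2 than at 4 months. It had 17, 45 and 62 reads in the PND2 libraries and 4741, 1557 and 2644 reads at 4 months. Set against the mean RPKM of its 2 neighbouring exons in the same library, it reached 7.16, 16.9 and 22.5% at PND2. At 4 months it reached 97.4, 87.3 and 93.3%. The ages were far apart, at 15.5 ± 7.74% and 92.7 ± 5.07% (SD, n = 3), while the exact 2-sided permutation p was 0.1, the smallest that 3 libraries against 3 allow. In limma's diffSplice, which tests each exon against the other exons of its gene over 154428 exons with a mean of at least 50 reads, its log2 difference in use was 2.94 (adjusted p 1.1e-11). Its call held in 11 of 11 alternative settings, with log2 differences of 2.50 to 3.29 and adjusted p-values up to 0.0025. None of the other 41 Myh11 exons was called. The 39-base exon is shorter than the 50-nt reads, so its percent of the neighbours is not an inclusion level. Among the uncalled exons, an exon of 28 bases exceeded both of its neighbours in every library. It had 148 RPKM against 73.7 and 73.2 in PND2 replicate 1, and 2794 RPKM against 1565 and 1290 in 4mo replicate 1. The short 21-base exon known to lengthen the head of the protein in fast smooth muscle has no entry of that length for Myh11 in the table.

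**Figure D2:**
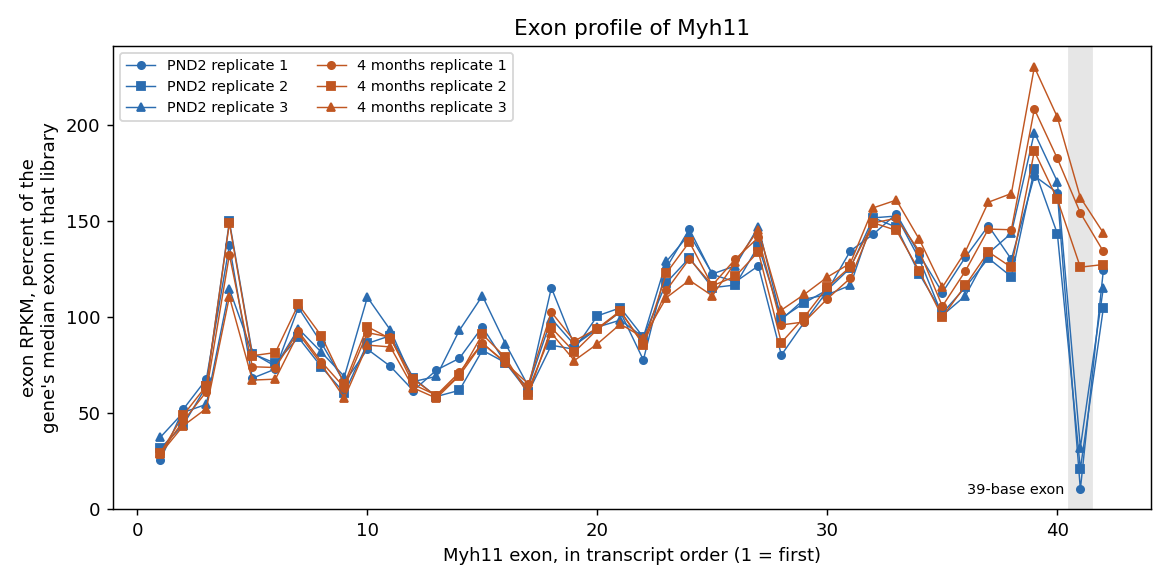
RPKM of each Myh11 exon as a percent of the median exon of the gene in that library, for exons 1 to 42 in transcript order and for each of the 6 libraries. The profiles of both ages run together except at the shaded 39-base exon, exon 41, where the PND2 libraries drop and the 4-month libraries do not.

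Acta2 encodes smooth muscle alpha-actin (chr19:34241090-34255336, minus strand). The PND2 libraries held 4138, 4852 and 5040 RPKM, and those of 4 months held 16006, 9422 and 11279 RPKM. The ages did not overlap, although the adult libraries spread more widely. The ratio of the means was 2.62, and the log2 fold change was 1.36 (SE 0.29, limma adjusted p 0.010). Acta2 was the most abundant nuclear protein-coding transcript at 4 months and ranked 3 at PND2. Its call was lost without PND2 replicate 1, at an adjusted p of 0.052, with no filter on low values (0.99) and with a per-gene unequal-variance test (0.075).

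Actg2, smooth muscle gamma-actin, is best known from the gut and other visceral muscle (chr6:83512905-83536265, minus strand). It was measured at 70.0, 113 and 79.7 RPKM at PND2 and at 176, 113 and 140 RPKM at 4 months. The highest neonatal and the lowest adult library met at the same level. Its log2 fold change was 0.71 (SE 0.22, limma adjusted p 0.040), and the call was lost in 9 of 17 alternative settings, with adjusted p-values of up to 0.18. Among these, it was 0.10 without PND2 replicate 1, 0.11 without PND2 replicate 3, 0.10 without 4mo replicate 1 and 0.098 without 4mo replicate 3.

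The actin pool changed in make-up, while its size overlapped between the ages. The summed RPKM of the 6 actin genes was 11717, 13660 and 14454 at PND2 and 19949, 14317 and 15714 at 4 months. Acta2 made up 35.3, 35.5 and 34.9% of it at PND2 and 80.2, 65.8 and 71.8% at 4 months. The share was nearly constant among the neonatal libraries and higher in each adult library, by 37.4 percentage points between means (exact permutation p 0.1, the smallest possible). Actc1, the cardiac alpha-actin, made up 47.4 ± 0.97% at PND2 and 11.4 ± 5.92% at 4 months (SD, n = 3). The shares of the cytoplasmic actins Actb and Actg1 differed little, by 0.14 and -0.26 points, with overlapping libraries. Actg2 held at most 0.89% of the pool in any library, and Acta1, the skeletal alpha-actin, averaged 2.79% and 1.33%. The coding sequences of the muscle actins are nearly identical, so how reads were divided among these genes is uncertain.

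**Figure D3:**
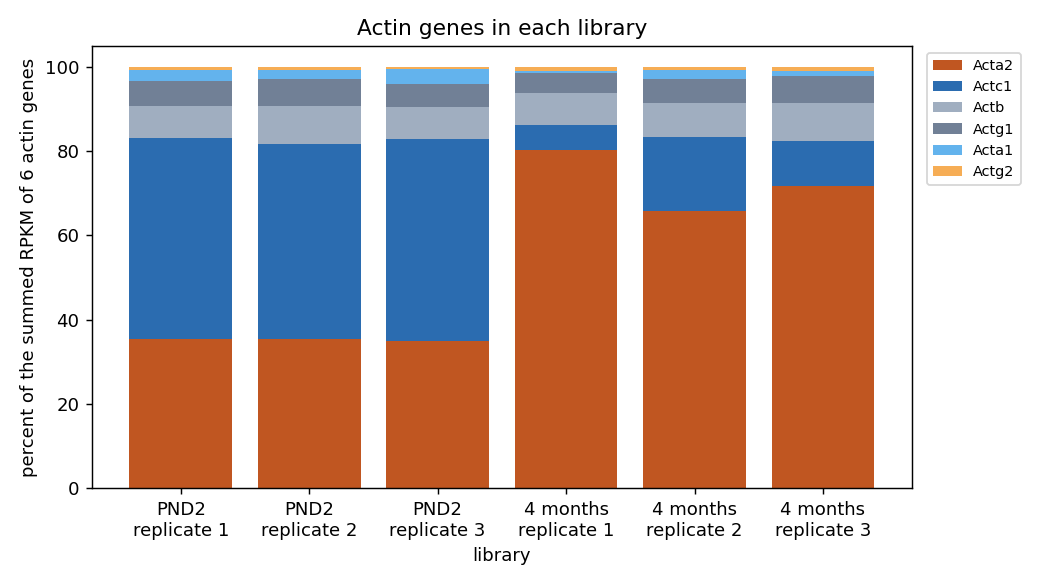
Share of each of 6 actin genes in their summed RPKM (percent) in each library, as stacked bars. Acta2 fills about the same part of the 3 PND2 bars, 34.9 to 35.5%, and 65.8 to 80.2% of the 4-month bars, where the Actc1 part is smaller.

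Calponin 1 and transgelin bind actin filaments and are used as markers of contractile smooth muscle. Cnn1 (chr9:22099281-22109630, plus strand) stood at 226, 297 and 303 RPKM at PND2 and at 930, 608 and 779 RPKM at 4 months. Its log2 fold change was 1.48 (SE 0.19, limma adjusted p 0.0013). Tagln (chr9:45929628-45936058, minus strand) stood at 2570, 2712 and 2605 RPKM and then at 7580, 4521 and 5549 RPKM. For both genes every adult library exceeded every neonatal one. The log2 fold change of Tagln was 1.13 (SE 0.24, limma adjusted p 0.010), and its call was lost with no filter (0.59) and with the per-gene unequal-variance test (0.11). Tagln was already the gene of rank 7 at PND2 and was at rank 3 at 4 months. It shares 1 exon with Pcsk7 on the other strand, a gene with 15.5 to 22.3 RPKM.

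Leiomodin 1, which nucleates actin filaments in smooth muscle, was at 47.6, 52.2 and 41.1 RPKM at PND2 and at 276, 183 and 185 RPKM at 4 months (chr1:135324807-135368065, plus strand). The log2 fold change of Lmod1 was 2.17 (SE 0.18, limma adjusted p 0.00023). Smoothelin, a protein found with contractile actin bundles, was at 85.0, 129 and 100 RPKM and then at 626, 436 and 536 RPKM (chr11:3517523-3540612, minus strand). The ages did not overlap for either gene, and both had larger log2 fold changes than Acta2, Cnn1 or Tagln. The log2 fold change of Smtn was 2.35 (SE 0.19, limma adjusted p 0.00021). An antisense gene, Gm11946, shares 7 exons with Smtn and was listed at 12.5, 21.3 and 15.6 RPKM at PND2 and at 103, 68.7 and 82.8 RPKM at 4 months. Its libraries stand in the same order as those of Smtn, and since the use of strand in counting is not stated, reads of the pair cannot be told apart.

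Smtn also differed in exon use near the end of its coding region. A 165-base exon that holds a stop codon (chr11:3520752-3520916) is part of a transcript of 921 codons, and the transcript that skips it has 923 codons. Relative to its 2 neighbouring exons it stood at 71.8, 61.5 and 80.1% at PND2 and at 30.8, 37.1 and 32.5% at 4 months. The use of the exon was lower in every adult library, by 0.95 on the log2 scale (diffSplice adjusted p 0.023). An overlapping record of 69 bases, which shares its reads, differed by -1.23 (adjusted p 0.00042). A longer record of 379 bases with the same end differed by -0.69 and was not called (adjusted p 0.31). The calls of the 165-base and 69-base records held in 6 of 11 and 9 of 11 alternative settings. Both were lost without PND2 replicate 3, at adjusted p-values of 0.42 and 0.057. The call of the 165-base exon was also lost without 4mo replicate 1 (0.13) and without 4mo replicate 3 (0.27). The 510-base first exon of the short smoothelin form was set against the mean RPKM of the 2 exons after it. It stood at 3.73, 3.96 and 5.80% of that mean at PND2 and at 2.71, 3.17 and 3.29% at 4 months. It was lower in every adult library, by 0.50 on the log2 scale, but was not called (diffSplice adjusted p 0.94). Smtn is transcribed in a long and a short form, the short one known from visceral and the long one from vascular smooth muscle.

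Desmin is the intermediate filament of muscle cells, including heart muscle (chr1:75360329-75368579, plus strand). Des was the one gene of the 10 with a negative fold change, with 251, 306 and 323 RPKM at PND2 and 202, 273 and 235 RPKM at 4 months. The ages overlapped. Its log2 fold change was -0.31 (95% confidence interval -0.66 to 0.04, limma adjusted p 0.14). Synaptopodin 2, an actin-bundling scaffold protein, was at 11.9, 15.7 and 13.3 RPKM at PND2 and at 97.6, 72.4 and 73.0 RPKM at 4 months (chr3:123076519-123236149, minus strand). Every adult library was higher. The log2 fold change of Synpo2 was 2.56 (SE 0.16, limma adjusted p 7.0e-05), next to that of Myh11. A 742-base exon record of Synpo2 had 1.42, 2.65 and 0.74 RPKM at PND2 and 31.2, 16.4 and 17.5 RPKM at 4 months, with a log2 difference in use of 1.48 (diffSplice adjusted p 0.0096). The record lies inside a larger exon record, and its call held in 3 of 11 alternative settings. Its adjusted p was 0.43 without PND2 replicate 3, and 0.084, 0.058 and 0.10 without 4mo replicates 1, 2 and 3.

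Myocd encodes myocardin, the SRF partner described above (chr11:65176561-65269989, minus strand). It was at 25.04, 25.52 and 23.95 RPKM in the PND2 libraries and at 25.3, 21.7 and 29.4 RPKM at 4 months. The neonatal values lay within the adult range. The log2 fold change was 0.03 (95% confidence interval -0.27 to 0.32, limma adjusted p 0.90). Relative to the median of all genes, the log2 fold changes of Myocd and Des were 0.16 and -0.17. The interval of Myocd leaves no room at the 95% level for a difference of the size seen in Myh11, Synpo2, Smtn or Lmod1.

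The exons of Myocd did show an age difference, in a record too small for the main exon test. An exon of 44 bases (chr11:65228818-65228861) belongs to a transcript annotated as processed, with no coding sequence. It had a mean of 30 reads, under the minimum of 50, so its test comes from alternative settings. The sequence is shown because it carries a stop in the reading frame. The exon is in capitals with 15 bases of its neighbours on each side.
Myocd 44-base exon: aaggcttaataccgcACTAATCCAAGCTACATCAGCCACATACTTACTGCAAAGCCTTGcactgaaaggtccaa
Placed in the reading frame of the coding transcript Myocd-202, which has 935 codons, the exon would bring a TAA stop after 41 codons, within the exon itself. Starts of translation after the exon were not searched for. Whether a transcript with the exon gives a protein from a later start was therefore not tested. The exon had 18, 8 and 7 reads at PND2 and 66, 31 and 50 reads at 4 months. Relative to its neighbours it stood at 26.9, 9.21 and 10.8% at PND2 and at 82.2, 87.6 and 82.2% at 4 months. This exon too is shorter than the 50-nt reads, so these percents are not inclusion levels. The ages were wide apart in this exon, while they overlapped for the gene as a whole. With voom weights and an RPKM of at least 1 in 3 libraries, a setting added after the data were seen, the log2 difference in use was 2.38 (adjusted p 0.0023), with 0.562% of all exons called. In the unweighted fit with the same filter it was 2.53 (adjusted p 4.3e-16), with 1.31% of all exons called. On simulated data this setting made 535 false calls in genes where no difference was planted. Exon totals do not show which exons a read joins, so the transcripts that carried this exon are not known.

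Of 176 distinct exon records of the 10 genes, 164 were tested and 4 were called, 1 of Myh11, 2 of Smtn and 1 of Synpo2. Over all exons tested 0.716% were called. None of the exons of Acta2, Cnn1, Tagln, Lmod1, Des, Actg2 or Myocd was called in the main fit.

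**Figure D4:**
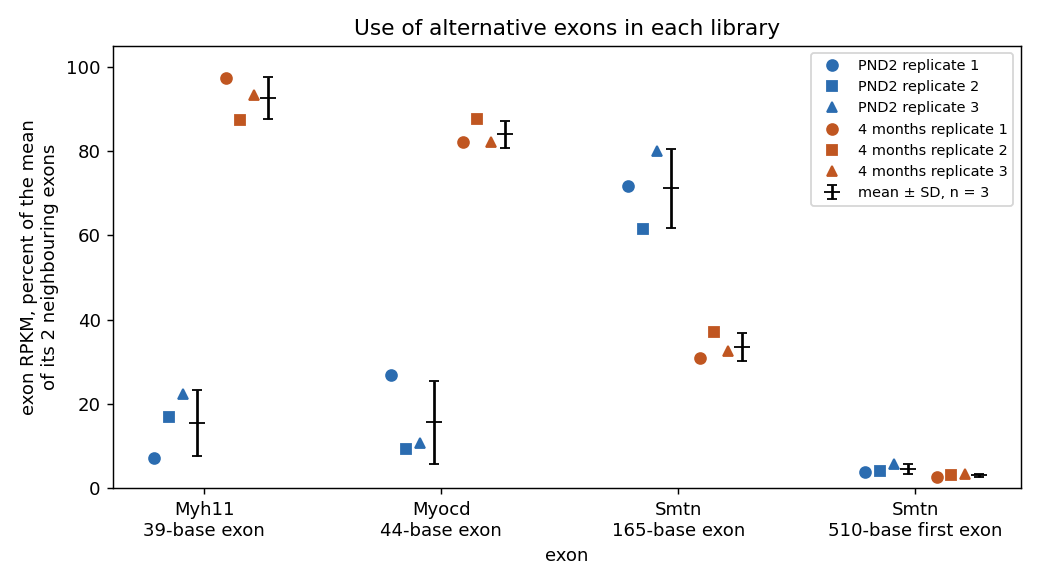
RPKM of 4 exons as a percent of the mean RPKM of their 2 neighbouring exons, in each library. For the first exon of the short Smtn form these are the 2 exons after it. The mean and SD (n = 3) of each age are shown. The Myh11 and Myocd exons are shorter than the 50-nt reads, so their percents are not inclusion levels. The Myh11 and Myocd exons stand at 7.16 to 26.9% at PND2 and at 82.2 to 97.4% at 4 months, the Smtn 165-base exon is lower at 4 months, and the first exon of the short Smtn form is at 5.80% or less.

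The order of the 10 genes by RPKM changed with age. At PND2, Acta2 and Tagln stood alone at the top. Des and Cnn1 followed with overlapping libraries, then Myh11, Smtn and Actg2, of which each overlapped the next. Lmod1, Myocd and Synpo2 closed the order and did not overlap. At 4 months Acta2, Tagln and Myh11 were separate from each other, Cnn1 overlapped Smtn, and Lmod1 overlapped Des. Below them came Actg2, Synpo2 and Myocd, again separate. Within the nuclear protein-coding genes, Smtn went from rank 823 to 114, Lmod1 from 2150 to 364, Synpo2 from 6727 to 1172 and Cnn1 from 258 to 67. Des moved the other way, from 237 to 316.

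The size of the age difference was unequal among the genes. Myh11 has the largest difference of the 10, so on average every ratio to it had to fall, and the direction is no separate result. The log2 ratio of each of the other 9 genes to Myh11 within a library does not depend on how the library is scaled. All 9 ratios were lower at 4 months with no overlap between the ages (exact permutation p 0.1 each, the smallest possible). With the gene of the largest difference as reference, this count and these p-values are no separate result either. The same count over all genes was not made. The ratio of Synpo2 to Myh11 fell by 0.91, that of Smtn fell by 1.12 and that of Lmod1 fell by 1.30. The ratio of Cnn1 fell by 1.99, that of Acta2 fell by 2.11 and that of Tagln fell by 2.34. The ratio of Actg2 fell by 2.76, that of Myocd fell by 3.44 and that of Des fell by 3.78. At 4 months the log2 ratio of Acta2 to Myh11 was 2.84, 2.77 and 2.84, a spread of 0.04 (SD), although Acta2 itself differed by 1.70-fold between replicates 1 and 2. The proportion of Acta2 to Myh11 was almost the same in the 3 adult libraries. At PND2 that ratio was 5.21, 4.76 and 4.82.

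Libraries of the same age differed in step for most of the genes. Of the adult libraries, replicate 1 was the highest for 8 of the 10 genes and replicate 2 the lowest for 9. Des ran against this order, highest in replicate 2 and lowest in replicate 1. Of the neonatal libraries, replicate 1 was the lowest for 8. Markers of other cell types moved as well. The summed RPKM of 15 cardiomyocyte markers was 16436 to 18052 at PND2 and 7057, 10762 and 7172 in the adult replicates 1 to 3, with 8 of the 15 called lower and none higher. Myl2, the ventricular myosin light chain, was at 3395 to 3815 RPKM at PND2 and at 278, 1881 and 1203 RPKM at 4 months. Myh6, the atrial and adult ventricular myosin heavy chain, was at 3067 to 3670 RPKM at PND2 and at 1793 to 2730 RPKM at 4 months, lower in every adult library but not called (log2 fold change -0.64, limma adjusted p 0.051). None of the 15 markers was at 0 in every library. The summed RPKM of 10 adipocyte markers was 93.3 to 179 at PND2, and 504, 1614 and 464 at 4 months, with 9 of the 10 called higher. Cidec, Lep and Retn of this list were at 0 in all 3 PND2 libraries, and Cfd was at 217, 955 and 172 RPKM at 4 months. The part of heart muscle and fat in the levels of the smooth muscle genes was not tested.

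Of the 9 pericyte markers, which the smooth muscle genes partly share as mural cell genes, 5 were higher and 2 lower, with sums of 526 to 766 RPKM at PND2 and 724 to 839 RPKM at 4 months. Mcam was higher (log2 fold change 0.44), and Rgs5 was lower (-0.99). Of 10 endothelial markers 9 were lower, among them Pecam1 (-0.49) and Egfl7 (-1.22), with sums of 573 to 798 RPKM and then 340 to 358 RPKM. Of 10 macrophage markers 8 were higher, among them Lyz2 (2.30) and C1qa (1.28), with sums of 331 to 376 RPKM and then 1053 to 1149 RPKM. Of 10 fibroblast-like markers 3 were higher and 5 lower, with sums of 6651 to 7298 RPKM and then 8315 to 10486 RPKM. Their median log2 fold change was -0.21. Dcn and Vim are named as the 2 most abundant of that list, and the 5 lower genes are others of it. Dcn, decorin, was higher (1.90), and Vim was at 1262 to 1509 RPKM at PND2 and 1593 to 2261 RPKM at 4 months. Of 10 skeletal muscle markers 5 were lower, among them Ckm (-1.63), with sums of 937 to 1399 RPKM and then 266 to 577 RPKM. None of the 5 erythroid markers that passed the filter was called, and the 7 summed to 1865 to 2599 RPKM and then 750 to 2158 RPKM, with Hba-a2 at log2 fold change -0.80. The part of these cell types in the smooth muscle results was not tested.

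Of 60 other genes of smooth muscle contraction, 35 were higher at 4 months, 6 were lower and 19 were not called. Their median log2 fold change was 0.59, against -0.14 over all genes. The signalling genes counted most calls and the transcription factors fewest.

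Among 12 other filament and motor genes, 6 were higher and 2 lower. Mylk, the kinase that starts contraction by phosphorylating the myosin light chain, rose by 2.76 on the log2 scale (SE 0.15, limma adjusted p 5.1e-05). Its libraries were at 24.99, 29.91 and 28.09 RPKM at PND2 and at 236, 167 and 168 RPKM at 4 months. Tpm2, a muscle tropomyosin, rose by 1.53 (limma adjusted p 0.0018). Tpm4, a tropomyosin found mainly outside muscle, was lower (-0.98, limma adjusted p 0.00076), and Cnn2, the calponin of non-muscle cells, was lower as well (-0.51, limma adjusted p 0.036).

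Among 18 signalling genes, 15 were higher and 1 lower. Kcnma1 and Kcnmb1, the pore and the beta subunit of the calcium-activated potassium channel that relaxes smooth muscle, rose together, by 2.86 and 2.84. Kcnma1 remained at low levels, at 0.61, 0.97 and 0.80 RPKM at PND2 and 7.05, 5.87 and 5.99 RPKM at 4 months. Kcnmb1 was at 8.65, 12.3 and 11.7 RPKM and then at 91.7, 68.7 and 74.8 RPKM. Cacna1c, the L-type calcium channel of both heart and smooth muscle, was lower (-0.87, limma adjusted p 0.010). Prkg1, the cGMP-dependent kinase, had a log2 fold change of -0.35 and was not called (limma adjusted p 0.14).

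Among 18 genes of the dense plaques, where filaments meet the membrane, 11 were higher and 1 lower. Itga8, the integrin alpha8 chain, rose by 1.65 (limma adjusted p 0.00022), from 160, 176 and 169 RPKM to 635, 497 and 469 RPKM. Synm, an intermediate filament protein that pairs with desmin, rose by 1.51 (limma adjusted p 0.00054) while staying at 12.09 to 14.97 RPKM at 4 months. Pdlim3 was lower (-0.52, limma adjusted p 0.020). Nexn, nexilin, had a log2 fold change of -0.47 and was not called (limma adjusted p 0.060).

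Among 12 transcription factors and cofactors of the program, 3 were higher and 2 lower, a share near the 35.8% of all genes called, and their median log2 fold change was -0.09, close to that of all genes. Neither SRF itself nor the myocardin-related factors Mkl1 and Mkl2 were called. The fitted differences were -0.10 for Srf (limma adjusted p 0.58), -0.08 for Mkl1 (0.74) and -0.18 for Mkl2 (0.30). Klf4, known as a repressor of contractile genes, was higher (0.95, limma adjusted p 0.0053), at 25.5 to 38.2 RPKM at PND2 and 55.1 to 71.0 RPKM at 4 months. Mef2c was higher (0.64), while Gata6 (-1.20) and Tead1 (-0.84) were lower.

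**Figure D5:**
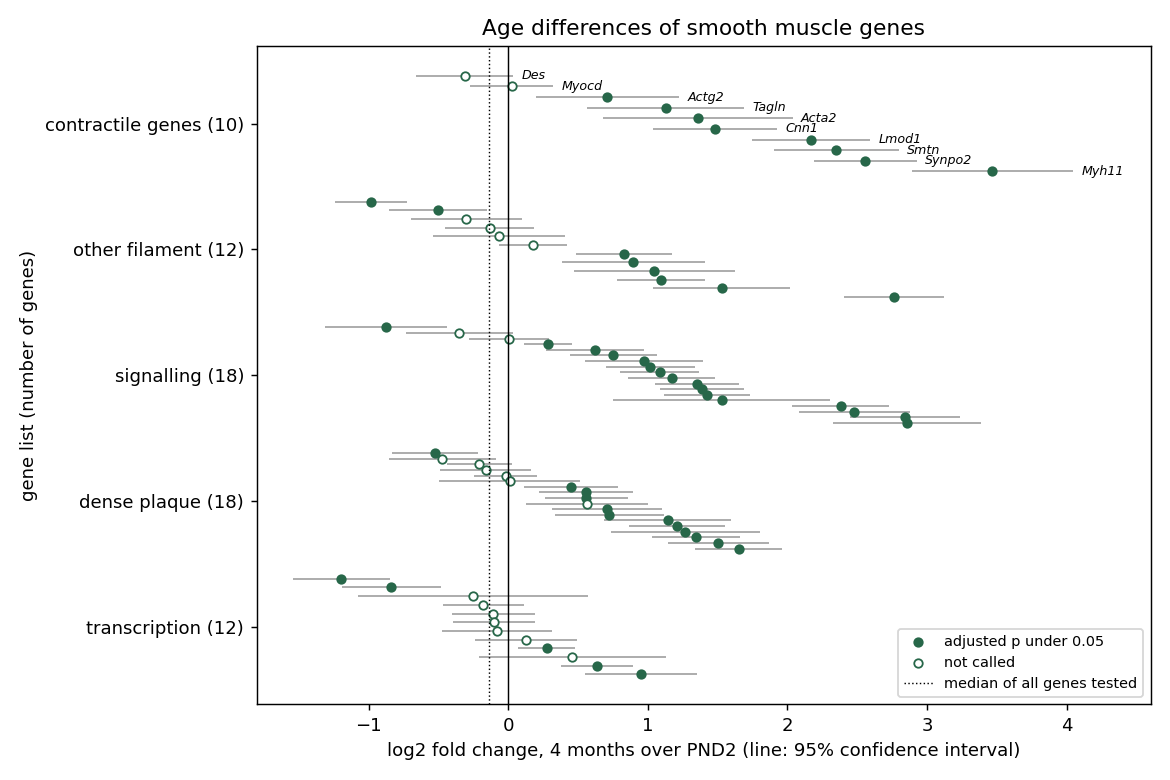
Log2 fold change from PND2 to 4 months with its 95% confidence interval (limma) for the 10 contractile genes and 60 other smooth muscle genes, grouped by role. Filled points have an adjusted p under 0.05, and the dotted line is the median of all genes tested, -0.14. The points of the contractile, filament and signalling genes reach log2 fold changes of over 2.5, and the transcription factors lie on both sides of 0.

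The genes whose pattern over the 6 libraries was most like that of Myh11 were Tbc1d9, Kcnmb1, Siae, Gstk1 and Emb. Their Pearson correlations with Myh11 on the log2 scale were 0.9996 to 0.9987, among 11173 protein-coding genes with a mean of at least 5 RPKM at one age. The 6 points fall into the 2 ages, so such values mostly describe the age difference and carry no test. Kcnmb1 is the channel subunit described above, and Emb is embigin, a membrane glycoprotein. Of the contractile genes, the values were 0.997 for Synpo2, 0.995 for Smtn, 0.991 for Cnn1, 0.984 for Lmod1, 0.980 for Acta2 and 0.964 for Tagln. Actg2 was at 0.865, Myocd at 0.120 and Des at -0.677.

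The promoters of the 10 genes were searched for the CArG box of SRF, on both strands over the 250 bases before the start of transcription. RefSeq promoters of GRCm38.p6 were at hand for 6 of the genes, Acta2, Cnn1, Smtn, Lmod1, Des and Synpo2, and Myh11, Tagln, Myocd and Actg2 were not searched. The strict box was in 0 of the 6, and in 1.47% of 32851 promoters. With 1 base of the A and T stretch free to differ, Acta2 matched at 2 places, and 8.59% of all promoters matched. The matches are shown in capitals with 25 bases on each side, as far as the promoter before the start reaches, because both lie in the promoter of the most abundant of the 10 genes. They begin 84 and 34 bases before the start, on the minus strand.
Acta2, chr19:34255423-34255482: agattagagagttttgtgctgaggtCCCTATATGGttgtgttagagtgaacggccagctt
Acta2, chr19:34255374-34255432: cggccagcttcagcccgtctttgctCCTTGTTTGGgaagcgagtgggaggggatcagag
No match says only that these letters are not in this window, and a match is not evidence of binding.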

How the data were processed

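The authors filtered and trimmed paired 50-nt reads, aligned them to mm10 with TopHat 2.1.0, counted them on Ensembl release 83 genes and exons with easyRNASeq and deposited RPKM values. Whether strand was used is not stated. Library totals were recovered by taking the smallest positive product of exon RPKM and exon length in each library as a single read. Multiplying RPKM by length and these totals gave whole reads for 100% of values (tolerance 0.001). Repeated exon records were merged.

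Genes with at least 0.1 RPKM in 3 libraries were compared with limma 3.58.1 (R 4.3.3) on log2(RPKM + 0.1), eBayes with trend, 2-sided. Fold changes on this scale understate those of low genes. Exon use was tested with diffSplice. The study's per-gene test was an alternative. On simulated data limma found 91% of 200 planted genes (log2 effect 2) with 13 false calls among 25903 genes. For exons, diffSplice found 91.5% of 200 planted ones, with 0 false calls in genes without a planted exon. Calls on other exons of the genes with a planted exon were not counted. The simulated exons had a fixed spread, not that of the data. Tables used Python 3.11.15 (scipy 1.17.1, pandas 2.3.3, numpy 2.4.6) and figures matplotlib 3.10.9.

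The genes and lists were chosen with earlier results of these data known. Named genes are the 10, the other actins, the 2 highest and 2 lowest fold changes of each smooth muscle list (mean of at least 5 RPKM at one age), the 2 most abundant of each marker list, the 5 most like Myh11, and each gene's most changed called exon with the Myh11 exons of 39 and 21 bases. The Myocd, other Smtn and Smtn first exons, genes overlapping members, Srf, Mkl1, Mkl2, Cidec, Lep and Retn were added after their values were seen.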

Additional observations from a re-analysis of the deposited data

How the results depend on the processing

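The higher calls of Myh11, Cnn1, Smtn, Lmod1 and Synpo2 held in each of 17 alternatives. Of the 10 contractile genes, 5 instead of 8 were higher with no filter and 5 with the per-gene unequal-variance test, and leaving out 1 library gave 6 to 8, the 6 without PND2 replicate 1, where Acta2 and Actg2 were lost. None was lower in any alternative. Calls over all genes fell as well. The main fit had 3810 higher and 5463 lower of 25903 genes. With no filter 2625 were higher and 3613 lower of 46983, and with the unequal-variance test 1466 and 1942 of 25903. With 1 library left out, 2634 to 3467 were higher, of 25096 to 25305 tested. Of the 60 other smooth muscle genes, 18 instead of 35 were higher with the unequal-variance test (28 to 34 with 1 library left out), and 3 or 2 instead of 6 were lower with no filter or the unequal-variance test (4 to 6). Of the markers, 35 instead of 54 were called with no filter and 20 with the unequal-variance test (39 to 51 with 1 library left out). The causes were not tested. The Acta2 share rose by 43.3 instead of 37.4 points among the 4 muscle actins alone (33.6 to 40.8 with 1 library left out). Exon calls numbered 1 to 4 with 1 library left out: 1 without PND2 replicate 3, 2 without 4mo replicate 1 and 2 without 4mo replicate 3. Over all exons these fits called 712 of 156251 to 1436 of 152124. The log2 fold change of Myocd changed sign without PND2 replicate 3 (-0.0008) and without 4mo replicate 3 (-0.085), with a range of -0.085 to 0.14 over libraries left out, and that of Fabp4, an uncalled adipocyte marker at -0.05, was 0.075 with median scaling, 0.022 with quantile normalization and 0.31, 0.32 and 0.12 without PND2 replicate 1, 4mo replicate 1 and 4mo replicate 3, with a range of -0.58 to 0.32.

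Replicate numbers did not pair the libraries: the deviations of same-numbered libraries from their age means correlated at 0.04, -0.06 and -0.16, and the highest correlation was 0.23, between PND2 replicate 2 and 4mo replicate 3. With a replicate block, 7 contractile genes were called higher, since Actg2 was lost (adjusted p 0.092), and 1 exon, that of Myh11, instead of 4. Over all genes 3004 of 25903 were then higher and 4163 lower, and 968 of 154428 exons were called. Of the other smooth muscle genes 31 were higher and 4 lower under the block, and 49 markers were called.

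Depth did not limit the values of the contractile genes, which rest on at least 3312 reads in every library. Other genes described above rest on fewer, such as Kcnma1 with as few as 153 reads in a library. Depth limited exons, since the Myocd exon had only 7 to 18 reads at PND2, and intervals from reads would cover counting error only.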
